A study of Rattus norvegicus with 6 samples.

Results

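The aminoacyl-tRNA synthetases, the enzymes that join each amino acid to its tRNA, were followed in primary rat microglia stimulated with LPS or with LPS/siponimod. Members were chosen by gene name: 35 genes were listed, 19 for the cytosol and 16 for the mitochondria, and 34 of them were found among the 23139 genes of the count tables. All 19 cytosolic genes and 15 of the 16 mitochondrial genes were present, and Vars2 was not analysed here. The tables list Cars1, Eprs1, Gars1 and Kars1 without the final 1. All 34 genes passed the filter on low counts, as did 11977 genes altogether.

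The study compared 3 libraries of cells given LPS (100 ng/mL, lipopolysaccharide, a bacterial cell wall product that triggers inflammatory activation) with the DMSO vehicle and 3 libraries of cells given LPS at the same dose together with 50 µM siponimod, a modulator of sphingosine-1-phosphate receptors. Every library came from microglia of Wistar rat cortices taken at postnatal day 1, which were shaken off mixed cultures and sorted with beads against CD11b/c. Cells without LPS and cells with siponimod alone were not analysed here, so that each difference is one of siponimod in the presence of LPS, at a single dose, and cells were collected after 1 or 3 days of stimulation, but the sources used here do not state outright which of these holds for the sequenced libraries. Depth was 39484979, 38301365 and 38080379 counts under LPS, and under LPS/siponimod it was 46643859, 43336006 and 38857441 counts.

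Cytosolic synthetases charge the tRNAs used by cytosolic ribosomes, and several of them are held together in the multi-synthetase complex by the scaffold proteins Aimp1, Aimp2 and Eef1e1. Mitochondrial synthetases are also encoded in the nucleus but charge the tRNAs of the mitochondrial genome, which serve the synthesis of respiratory chain subunits. When amino acids run short or protein folding is disturbed, phosphorylation of the initiation factor eIF2 favours translation of the transcription factor ATF4, whose known target genes include many cytosolic synthetases.

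Before the synthetases were compared, the libraries were checked against cell type markers. Of 16 microglia markers 15 were in the tables, with summed counts of 427785, 357143 and 229174 under LPS against 223260, 270090 and 142260 under LPS/siponimod, and Csf1r, the receptor that keeps microglia alive, had the most counts when summed over the 6 libraries, while Cd68, a lysosomal glycoprotein of macrophages, had the most under LPS/siponimod alone. Markers of resting microglia were low: Cx3cr1 had 69, 202 and 35 counts under LPS against 3, 21 and 4 under LPS/siponimod, and P2ry12 had 15.8, 15.8 and 1.16 CPM (counts relative to library depth) against 0.387, 2.37 and 0.317 CPM. Among the 15 genes the calcium-binding protein Aif1 (log2 FC -1.88), the integrin Itgam (-0.87) and the fractalkine receptor Cx3cr1 (-3.65) were downregulated and the transcription factor Sall1 (0.93) was upregulated, and with the replicate number as a block (a fit that pairs same-numbered libraries) 8 markers were downregulated in place of 3. The libraries numbered 3 stood apart in both conditions, LPS replicate 3 the more so: the 9 oligodendrocyte lineage markers summed to 199, 207 and 1339 counts under LPS against 529, 460 and 926 under LPS/siponimod, with 515 counts of Olig1 in LPS replicate 3 against 1 and 5 in the other LPS libraries. Pdgfra, a marker of oligodendrocyte precursors, had 5, 4 and 284 counts under LPS against 1, 4 and 81 under LPS/siponimod, and the neuronal Map2 had 0, 3 and 162 against 1, 1 and 115. Mbp, which had the most counts summed over the 6 libraries while Olig1 had the most under LPS, had 149, 161 and 84 counts under LPS against 470, 397 and 652 under LPS/siponimod and was upregulated (log2 FC 1.74), while the myelin genes Mog and Mag had at most 1 count in any library. The 9 neuron markers, led by Tubb3, summed to 64, 40 and 435 counts under LPS against 301, 411 and 914 under LPS/siponimod, and among them Snap25 was upregulated from 0, 1 and 1 counts to 94, 153 and 81, with 2 of the markers upregulated under the block. The 9 astrocyte markers, led by Slc1a3, summed to 1794, 939 and 1024 counts against 1364, 1287 and 2500, with Aldoc downregulated (log2 FC -1.12) and Gjb6 at 0 throughout. The 8 fibroblast and endothelial markers in the tables, led by Cdh5, summed to 5945, 7943 and 3175 counts against 2226, 3681 and 1348, and Dcn was upregulated from 3, 0 and 4 counts to 456, 49 and 178, with 2 of these markers downregulated under the block and 0 without it. The part that these differences play in the synthetase results was not tested, and counts without LPS replicate 3 and without both libraries numbered 3 are given beside the main ones.

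Of the cytosolic synthetases 10 of 19, led by those for serine, alanine and tryptophan, were upregulated with LPS/siponimod. That count ranged from 6 to 13 when a library was left out. Most mitochondrial synthetases passed in neither direction. A differentially expressed gene (DEG) had an adjusted p of at most 0.05 in edgeR's quasi-likelihood test and a change of at least 1.5-fold, which 13.6% of all genes tested met as upregulated and 11.7% as downregulated. Of the 19 cytosolic synthetases, 10 were upregulated, 0 were downregulated and 9 did not pass, with a median log2 FC of 0.89 beside -0.02 over all genes tested. No cytosolic synthetase was lower at an unadjusted p of 0.05 or by DESeq2 or limma-voom. Of the 15 mitochondrial synthetases, 1 was upregulated, 3 were downregulated and 11 did not pass, with a median log2 FC of -0.05. In bulk RNA, fewer cells of a type and less RNA per cell cannot be told apart.

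Values per library were also summed by compartment. Normalized counts (CPM, counts relative to library depth after scaling with TMM factors) of the 19 cytosolic genes summed to 1567, 1880 and 2155 under LPS against 4104, 3831 and 4177 under LPS/siponimod, a rise of 2.16 times between the means (1868 ± 294 and 4037 ± 182, SD, n = 3 each). The 15 mitochondrial genes summed to 226, 239 and 221 CPM under LPS against 187, 192 and 183 under LPS/siponimod, which is 0.821 times the LPS mean (228 ± 9.23 and 188 ± 4.23, SD, n = 3 each). Neither sum overlapped between the conditions. The lower mitochondrial sum rested largely on Hars2 (mean of 84.9 CPM under LPS against 66.8 under LPS/siponimod), Iars2 (43.0 against 30.7) and Tars2 (19.7 against 6.27). The median log2 FC of the 15 mitochondrial genes was -0.05. Cytosolic members took 0.147%, 0.189% and 0.210% of all counts under LPS, a share that was 0.409%, 0.395% and 0.441% under LPS/siponimod. Mitochondrial members took 0.0212%, 0.0240% and 0.0215% under LPS against 0.0187%, 0.0198% and 0.0194% under LPS/siponimod. These shares are not scaled with TMM factors. After that scaling, the summed CPM of all genes tested under LPS/siponimod was 0.947 times the LPS mean, so the mitochondrial CPM sums hold part of this general difference.

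Among the LPS libraries the cytosolic genes varied together. LPS replicate 1 was the lowest of the LPS libraries for 17 of the 19 genes and LPS replicate 3 the highest for 17, with median deviations from the group mean of -0.30 and 0.29 log2 units, whereas those of the LPS/siponimod libraries were -0.06, -0.02 and 0.05. The share of all genes with this order is not given here. Some lists described below rose in the same order, such as tRNA modification (summed CPM of 509, 559 and 674) and tRNA maturation and export (446, 509 and 581). The list of uncharged tRNA sensing and the ATF4 branch did not (751, 711 and 858). Median log2 differences between same-numbered libraries were 1.11, 0.99 and 0.60 for the cytosolic genes and -0.09, -0.15 and 0.05 for the mitochondrial genes. Without LPS replicate 3, 13 cytosolic genes were upregulated with a median log2 FC of 1.08. In the same setting 1 mitochondrial gene was upregulated and 2 were downregulated. Over all 12242 genes then tested, 1941 were upregulated and 1772 downregulated, so that calls rose in general. Both libraries numbered 3 were also left out, a choice made after the marker counts were seen. Then 12 cytosolic genes were upregulated with a median log2 FC of 1.05, and 1 mitochondrial gene was upregulated (Mars2) and 1 downregulated (Tars2). Counts over all genes for that setting are not given here, so that no background share stands beside its counts. Without LPS replicate 2, 6 cytosolic genes were upregulated and no mitochondrial gene passed in either direction, and over all genes 469 were upregulated and 182 downregulated, in place of 1633 and 1403. Leaving out LPS replicate 1 gave 9 upregulated cytosolic genes and 1 downregulated mitochondrial gene. Leaving out LPS/siponimod replicate 1 or 3 gave 7 upregulated cytosolic genes each, with 0 mitochondrial genes upregulated and 1 downregulated. Over all genes 1099 were upregulated and 644 downregulated without LPS replicate 1. These counts were 592 and 191 without LPS/siponimod replicate 1, and 762 and 273 without LPS/siponimod replicate 3.

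**Figure D1:**
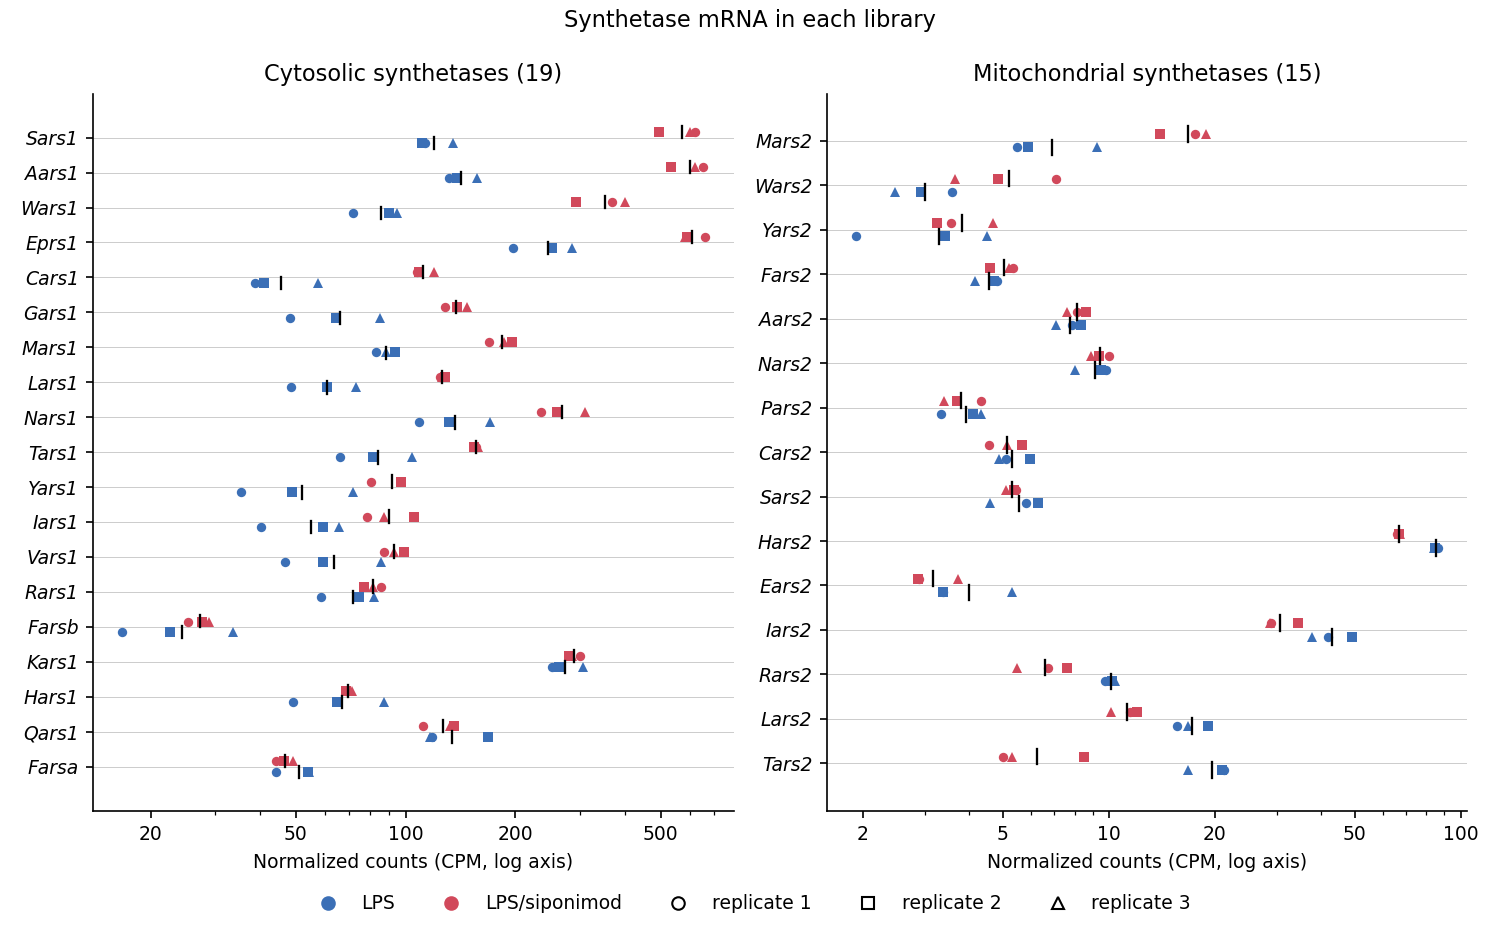
Normalized counts (CPM, log axis) of the 19 cytosolic (left) and 15 mitochondrial (right) synthetases in each of the 3 LPS (blue) and 3 LPS/siponimod (red) libraries, with symbols for replicates 1 to 3, black lines at the group means and genes ordered by log2 FC. The red points of Sars1, Aars1 and Wars1 lie far to the right of the blue ones, those of Tars2 lie to the left, and those of Kars1 and Hars1 lie among the blue ones.

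Serine, alanine and tryptophan enzymes changed most among the cytosolic members. Sars1, which charges serine tRNA and also selenocysteine tRNA, had 4200, 4268 and 5026 counts under LPS against 28851, 22083 and 24689 under LPS/siponimod. Its mean rose from 120 ± 13.4 to 572 ± 67.9 CPM (SD, n = 3 each), a log2 FC of 2.26 (SE 0.17, adjusted p = 0.00295 in edgeR). Aars1, the alanine enzyme, had 4882, 5332 and 5825 counts under LPS against 30438, 23790 and 25437 under LPS/siponimod, a rise from 142 ± 12.9 to 603 ± 62.8 CPM (log2 FC 2.08, SE 0.16, adjusted p = 0.00295 in edgeR). Every LPS/siponimod library exceeded every LPS library by far for both genes. Wars1, the tryptophan enzyme, whose gene is known for its induction by interferon, had 2665, 3467 and 3519 counts under LPS against 17093, 13058 and 16360 under LPS/siponimod. It rose from 85.5 ± 12.01 to 353 ± 54.6 CPM (log2 FC 2.05, SE 0.19, adjusted p = 0.00435 in edgeR), again without overlap.

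The start of the alanine gene is shown because its upstream sequence holds a match to the composite motif bound by dimers of ATF4 with C/EBP proteins, TGATGCAA, which reads TTGCATCA on the other strand. Sequences come from RefSeq on the GRCr8 assembly, not the assembly used for mapping, and run 5′ to 3′ on the strand of the gene. The 250 bases before the start of Aars1 lie at chr19:55908232-55908481 (plus strand), and those before the start of Sars1, the gene with the largest log2 FC of the members, at chr2:198769366-198769615 (minus strand). The motif is in capitals, with its first base at -112 from the start of Aars1, where -1 is the last base upstream and 1 the first base of the gene. The Sars1 sequence holds no match on either strand, which says only that these letters are absent from it.
Aars1: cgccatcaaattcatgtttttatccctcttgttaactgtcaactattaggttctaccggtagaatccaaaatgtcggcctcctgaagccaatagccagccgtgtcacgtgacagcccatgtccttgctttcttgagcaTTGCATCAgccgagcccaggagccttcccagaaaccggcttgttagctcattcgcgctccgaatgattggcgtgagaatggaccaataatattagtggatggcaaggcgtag
Sars1: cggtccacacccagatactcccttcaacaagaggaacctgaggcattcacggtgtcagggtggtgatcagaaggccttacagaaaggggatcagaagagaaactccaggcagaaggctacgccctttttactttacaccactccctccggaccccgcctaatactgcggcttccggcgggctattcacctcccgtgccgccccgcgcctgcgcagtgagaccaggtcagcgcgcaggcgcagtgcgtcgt

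Of the next group, Eprs1 is the fused enzyme for glutamate and proline and a member of the multi-synthetase complex. It had 7285, 9733 and 10639 counts under LPS against 30642, 26307 and 23993 under LPS/siponimod, a rise from 245 ± 45.2 to 611 ± 41.9 CPM (log2 FC 1.32, SE 0.18, adjusted p = 0.00815 in edgeR). Cars1, the cysteine enzyme, had 1436, 1573 and 2137 counts under LPS against 4994, 4857 and 4908 under LPS/siponimod (log2 FC 1.29, SE 0.18, adjusted p = 0.00817 in edgeR). The conditions did not overlap for either gene, and the LPS/siponimod libraries of Cars1 were nearly equal in counts.

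Mars1, the methionine enzyme, had 3075, 3603 and 3286 counts under LPS against 7867, 8749 and 7635 under LPS/siponimod (log2 FC 1.06, SE 0.12, adjusted p = 0.00647 in edgeR). Its 3 differences between same-numbered libraries were nearly alike, at 1.03, 1.07 and 1.07 log2 units. In the RefSeq annotation Mars1 overlaps Ddit3, which encodes the stress transcription factor CHOP and which had 1540, 1030 and 1048 counts under LPS against 15838, 10160 and 10792 under LPS/siponimod (log2 FC 3.11). Whether reads were assigned by strand is not given in the sources used here, so that reads of the overlap cannot be told apart and the value of Mars1 is uncertain to that extent. Aars1 and Yars1 each overlap a protein-coding gene that was not a DEG, Ddx19b and S100pbp.

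Leucine, threonine, glycine and asparagine enzymes about doubled. Lars1 had 1801, 2347 and 2727 counts under LPS against 5766, 5709 and 5173 under LPS/siponimod (log2 FC 1.05, SE 0.17, adjusted p = 0.0108 in edgeR). Tars1 had 2445, 3146 and 3882 counts against 7238, 6886 and 6485 (log2 FC 0.89, SE 0.18, adjusted p = 0.0191 in edgeR). Gars1, a gene that yields the glycine enzyme of both compartments, had 1791, 2480 and 3172 counts against 5950, 6161 and 6056 (log2 FC 1.06, SE 0.22, adjusted p = 0.0192 in edgeR). In all 3 genes the LPS/siponimod libraries lay close together and above all LPS libraries, and among the LPS libraries replicate 1 was the lowest and replicate 3 the highest. Nars1, for asparagine, was upregulated by 0.97 log2 units (SE 0.21, adjusted p = 0.0212 in edgeR), also without overlap. These calls were less firm than those above: Gars1 and Tars1 were lost without LPS replicate 2 (adjusted p = 0.0762 and 0.0757 in edgeR), without LPS/siponimod replicate 1 (0.0687 and 0.0781) and without LPS/siponimod replicate 3 (0.0685 and 0.0664). Lars1 was lost without LPS replicate 2 (adjusted p = 0.0527 in edgeR), and Nars1 when LPS replicate 1 or 2 or LPS/siponimod replicate 1 or 3 was left out (adjusted p = 0.0516, 0.0841, 0.0638 and 0.0740 in edgeR). Their log2 FC kept the same direction in each case.

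The 9 remaining cytosolic genes did not pass the test. Yars1 (tyrosine, log2 FC 0.81), Iars1 (isoleucine, 0.72) and Vars1 (valine, 0.54) had all LPS/siponimod libraries above all LPS libraries, with adjusted p = 0.0635, 0.0528 and 0.120 in edgeR. With the replicate number as a block, under which 17.7% of all genes were upregulated and 16.4% downregulated, Yars1 and Iars1 passed (adjusted p = 0.0207 and 0.0197 in edgeR). Without LPS replicate 3, Yars1, Iars1 and Vars1 all passed (adjusted p = 0.0160, 0.0361 and 0.0177 in edgeR). The conditions overlapped for the other 6, Rars1 (arginine, log2 FC 0.18), Farsb (beta subunit of the phenylalanine enzyme, 0.17), Kars1 (lysine, 0.07), Hars1 (histidine, 0.05), Qars1 (glutamine, -0.09) and Farsa (alpha subunit of the phenylalanine enzyme, -0.13). Kars1, whose gene also serves both compartments, had 9311, 10162 and 11409 counts under LPS against 13952, 12499 and 11710 under LPS/siponimod (274 ± 29.2 and 288 ± 10.5 CPM, SD, n = 3 each). Hars1 had 1822, 2497 and 3244 counts under LPS against 3183, 3058 and 2922 under LPS/siponimod (adjusted p = 0.879 in edgeR, the largest among the cytosolic genes), and its LPS/siponimod libraries fell within the range of the LPS libraries.

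Altogether 13 of the 19 cytosolic genes had every LPS/siponimod library above every LPS library in CPM, which 25.3% of all genes tested did, and 0 had every library below, which 24% of all genes did. Within the multi-synthetase complex 3 of 7 enzymes were upregulated (Eprs1, Lars1 and Mars1, median log2 FC of the 7 genes 0.72), and outside it 7 of 12 (median 0.93). Synthetases fall into a pair of structural classes with unrelated catalytic folds. Of the class I enzymes of the cytosol 4 of 9 were upregulated (median log2 FC 0.81), and of the class II enzymes 5 of 9 (median 0.89), with Eprs1 belonging to both. Whether these subgroups differ was not tested.

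**Figure D2:**
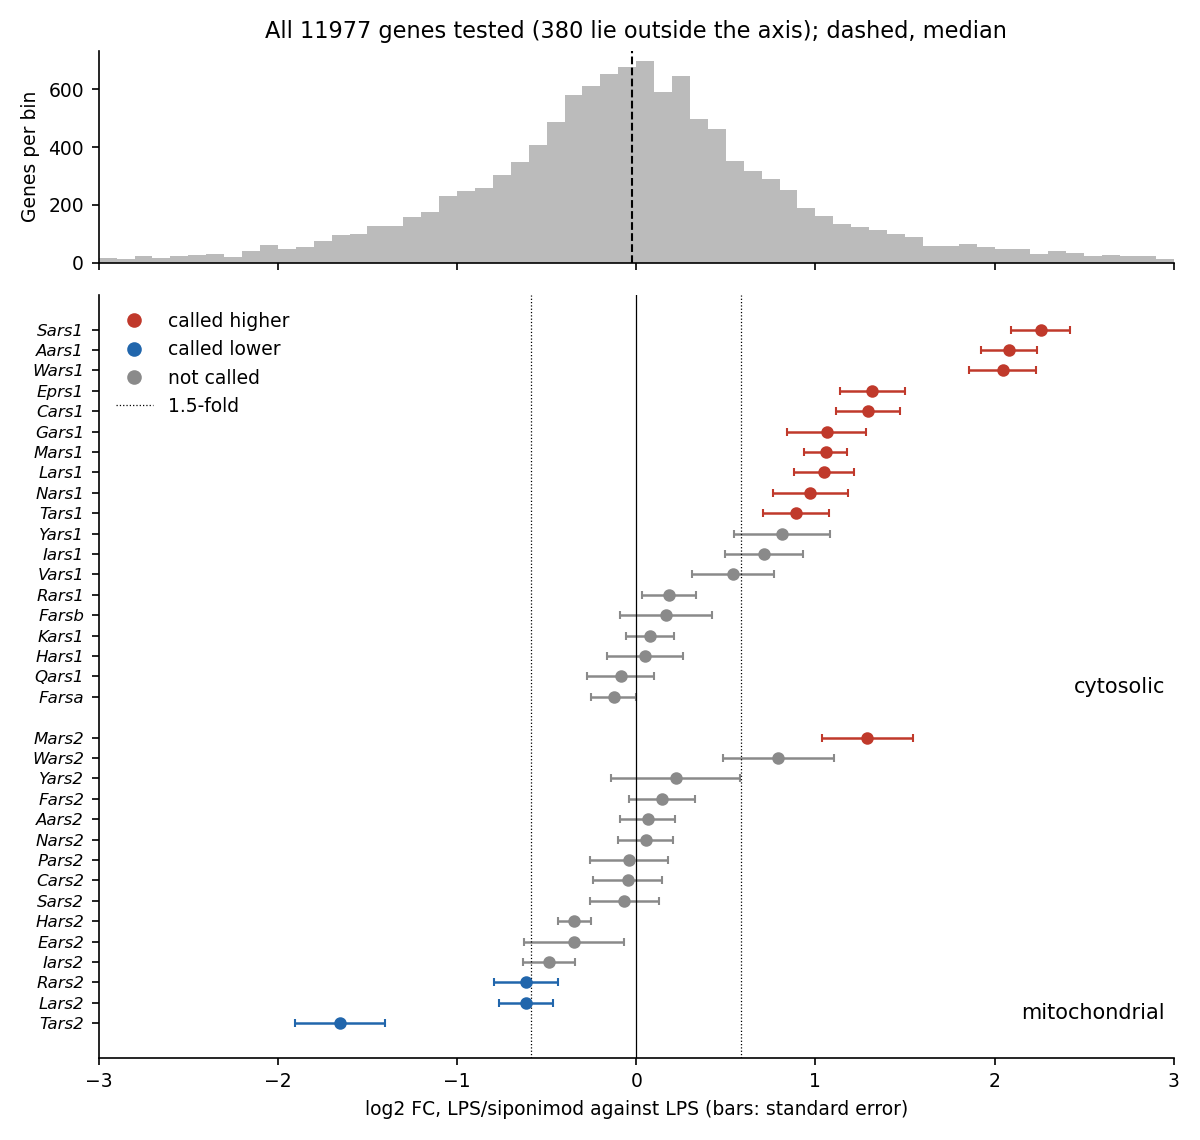
Top, histogram of the log2 FC of LPS/siponimod against LPS over all 11977 genes tested, with the median of -0.02 dashed. Bottom, log2 FC with standard error (3 libraries per condition) of each synthetase, coloured by call, with dotted lines at 1.5-fold. The cytosolic genes spread from -0.13 to 2.26 with 10 upregulated, and the mitochondrial genes from -1.65 to 1.29 with 1 upregulated and 3 downregulated.

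Tars2, the mitochondrial threonine enzyme, changed most among the mitochondrial members. It had 789, 808 and 627 counts under LPS against 233, 379 and 218 under LPS/siponimod, a fall from 19.7 ± 2.47 to 6.27 ± 1.93 CPM (log2 FC -1.65, SE 0.25, adjusted p = 0.00980 in edgeR). All LPS/siponimod libraries lay well below the LPS libraries. The call was lost without LPS replicate 2 (log2 FC -1.59, adjusted p = 0.0508 in edgeR). Its cytosolic counterpart Tars1 had moved the other way.

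Lars2 (leucine) had 579, 740 and 627 counts under LPS against 536, 538 and 416 under LPS/siponimod and was downregulated (log2 FC -0.62, SE 0.15, adjusted p = 0.0291 in edgeR). Rars2 (arginine) had 361, 394 and 388 counts against 313, 340 and 225 and was also downregulated (log2 FC -0.62, SE 0.18, adjusted p = 0.0453 in edgeR). The conditions did not overlap in CPM for either gene, but the calls lay near the threshold. That of Lars2 was lost when LPS replicate 1 or 2 or LPS/siponimod replicate 1 or 3 was left out (adjusted p = 0.0543, 0.115, 0.103 and 0.0988 in edgeR), and that of Rars2 when each of these was left out in turn (adjusted p = 0.0901, 0.140, 0.139 and 0.129 in edgeR) and without LPS replicate 3 (0.0623). Rars2 was also not a DEG by the likelihood ratio test (adjusted p = 0.0891 in edgeR) or without a filter beyond 1 count (0.0736), and neither gene was one without both libraries numbered 3 (adjusted p = 0.0839 for Lars2 and 0.119 for Rars2 in edgeR). It overlaps the genes Orc3 and Slc35a1 in RefSeq, neither of them a DEG. Hars2 (histidine) had 3200, 3254 and 3118 counts under LPS against 3074, 2988 and 2768 under LPS/siponimod, or 84.9 ± 1.30 and 66.8 ± 0.650 CPM (SD, n = 3 each). Its log2 FC of -0.34 had an adjusted p of 0.0394 in edgeR but lay under 1.5-fold, as did Iars2 (isoleucine, log2 FC -0.49, adjusted p = 0.0490 in edgeR).

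Mars2, the mitochondrial methionine enzyme, was the 1 upregulated member of its compartment. It had 203, 228 and 344 counts under LPS against 817, 625 and 777 under LPS/siponimod, a rise from 6.88 ± 2.06 to 16.8 ± 2.55 CPM (log2 FC 1.29, SE 0.25, adjusted p = 0.0174 in edgeR). No LPS/siponimod library overlapped the LPS libraries. In RefSeq Mars2 overlaps Boll, which was not among the genes tested. The call was lost when LPS replicate 2 or LPS/siponimod replicate 1 or 3 was left out (adjusted p = 0.0723, 0.0718 and 0.0630 in edgeR). Wars2 (tryptophan) also had all LPS/siponimod libraries above the LPS libraries (log2 FC 0.79, adjusted p = 0.101 in edgeR) and passed with the replicate block (0.0368), but its counts were low, between 92 and 329.

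The other mitochondrial genes had overlapping conditions. Yars2 (tyrosine) had a log2 FC of 0.22, Fars2 (phenylalanine) 0.14, Aars2 (alanine) 0.06, Nars2 (asparagine) 0.05, Pars2 (proline) -0.04, Cars2 (cysteine) -0.05, Sars2 (serine) -0.07 and Ears2 (glutamate) -0.35. Pars2 had 124, 159 and 161 counts under LPS against 201, 166 and 140 under LPS/siponimod (adjusted p = 0.898 in edgeR, the largest among the mitochondrial genes). Of the 15 genes, 2 had every LPS/siponimod library above every LPS library (background 25.3%), and 5 had every library below (background 24%), namely Hars2, Iars2, Lars2, Rars2 and Tars2.

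To set the compartments against each other within a library, the log2 ratio of cytosolic to mitochondrial CPM was taken for 16 pairs of enzymes of the same amino acid, in which Eprs1 was paired with Ears2 and Pars2, and Farsa and Farsb with Fars2. A ratio of this kind does not depend on library scaling, while its level depends on gene length and only its difference between conditions is read here. The ratio was higher with LPS/siponimod in 14 pairs, and in 12 pairs every LPS/siponimod library exceeded every LPS library. For each of these 12 the two-sided exact permutation test over the 6 libraries gave p = 0.1, which is the smallest it can give with 3 against 3 (0.133 after Benjamini-Hochberg adjustment over the 16 pairs). This test, which does not use the pairing of the libraries by number, therefore cannot pass 0.05 for any pair, whatever the size of its difference. The pooled SD between libraries was 0.0861 to 0.518 over the 16 ratios.

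The largest difference was that of the threonine pair. Its log2 ratio Tars1/Tars2 was 1.63, 1.96 and 2.63 under LPS against 4.94, 4.18 and 4.88 under LPS/siponimod, a difference of 2.60 between means (2.07 ± 0.51 and 4.67 ± 0.43, SD, n = 3 each), to which a rise of Tars1 and a fall of Tars2 both contributed. The ratio Sars1/Sars2 was 4.27, 4.13 and 4.86 under LPS against 6.81, 6.51 and 6.86 under LPS/siponimod, a difference of 2.31. Aars1/Aars2 differed by 2.02, Lars1/Lars2 by 1.68, Eprs1/Ears2 by 1.65, Eprs1/Pars2 by 1.37, Cars1/Cars2 by 1.36, Wars1/Wars2 by 1.29, Iars1/Iars2 by 1.22, Nars1/Nars2 by 0.93, Rars1/Rars2 by 0.82 and Yars1/Yars2 by 0.58. In the methionine pair both enzymes were upregulated, and Mars1/Mars2 was 3.91, 3.97 and 3.25 under LPS against 3.26, 3.80 and 3.29 under LPS/siponimod, with overlap and a difference of -0.26. Hars1/Hars2 (0.43), Farsb/Fars2 (0.08) and Farsa/Fars2 (-0.26) overlapped as well. Between same-numbered libraries, Hars1/Hars2 was higher with LPS/siponimod in every pair of libraries and Farsa/Fars2 was lower in every pair. Farsb/Fars2 and Mars1/Mars2 went both ways. These paired differences were not tested.

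**Figure D3:**
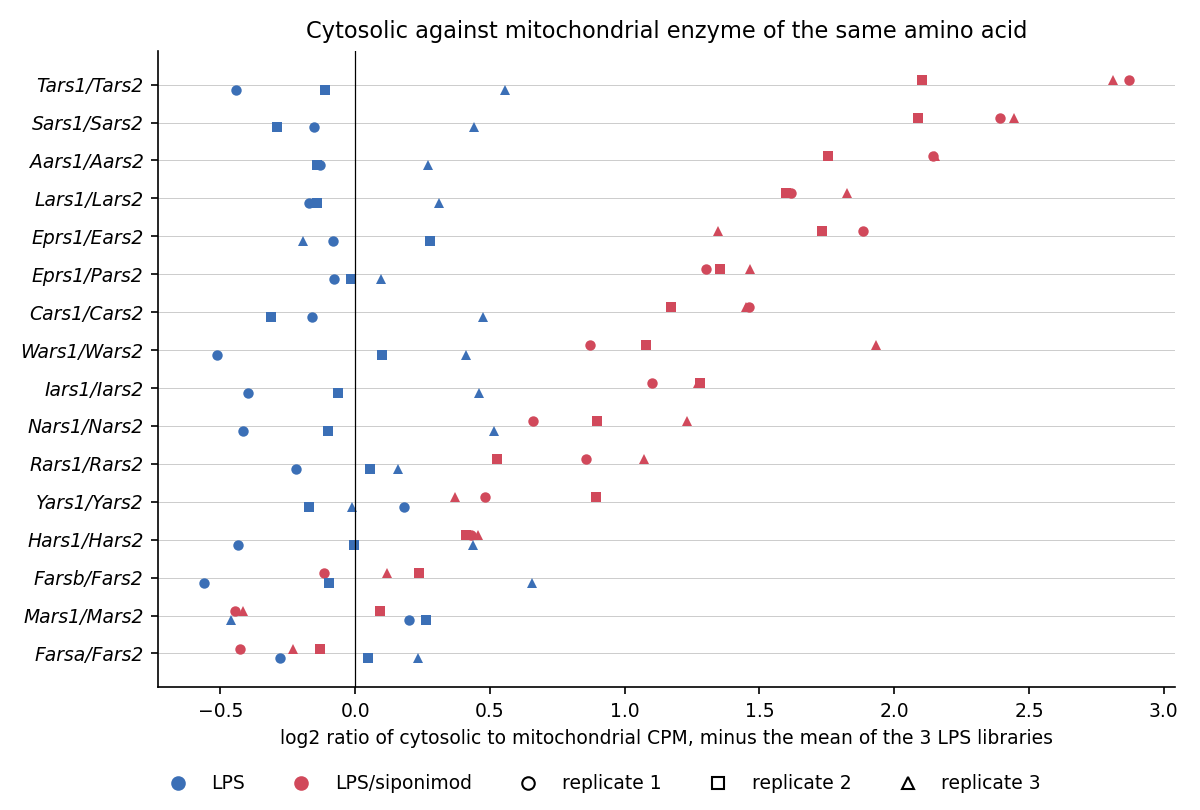
log2 ratio of cytosolic to mitochondrial CPM for the 16 pairs in each library, minus the mean of the 3 LPS libraries (x axis), with LPS in blue, LPS/siponimod in red and symbols for replicates 1 to 3. In 12 pairs all red points lie to the right of all blue points, and the pairs of histidine, methionine and phenylalanine overlap.

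The motif shown above for Aars1 was then sought in the start windows of all members, 250 bases before to 50 bases after the start, with TGATGCAA on either strand. Windows were found for 33 of the 35 listed genes, 32 of them with counts. TGATGCAA was present in 7 of 17 cytosolic genes (17 windows) and in 0 of 15 mitochondrial genes (17 windows, since Mars2 has 3), compared with 54 of the 9006 tested genes with a window (0.600%) and 0.795% of all 33469 windows of this length. Allowing any base at 1 position (TGATGNAA, which includes the former) gave the same 7 genes, with a further match in Aars1 at position 10, and was held by 2.05% of the tested genes and 3.98% of all windows. Of the 6 sites outside Aars1, 5 are shown to compare their flanks, with the motif in capitals, and that of Nars1 is not shown: Cars1 at chr1:208225335-208225362, Iars1 at chr17:15193659-15193686, Mars1 at chr7:65023753-65023780 and Tars1 at chr2:62114812-62114839 on the minus strand, and Yars1 at chr5:146820191-146820212 on the plus strand (GRCr8).
Cars1: ggcgccgcggTTGCATCAgattctggaa
Iars1: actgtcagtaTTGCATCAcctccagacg
Mars1: cccgttccggTTGCATCAgcgtgggctc
Tars1: tggcgtcccgTTGCATCAgctggttagc
Yars1: cgagctcagcTGATGCAAcctg

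The match began at -27 in Tars1, -24 in Iars1, -17 in Mars1 and -14 in Nars1, the gene with the seventh match, and after the start at 18 in Cars1 and 39 in Yars1, so that Aars1 at -112 was the farthest from its start. Of the 7 cytosolic genes with a match 5 were upregulated, with a median log2 FC of 0.97 (0.72 to 2.08), and of the 10 without a match 4 were upregulated, with a median of 0.35 (-0.13 to 2.26). The 4 were Sars1, Wars1, Eprs1 and Lars1, so that the genes with the largest log2 FC were found on both sides. Outside the synthetases, 47 tested genes had the motif in their window, of which 7 (14.9%) were upregulated and 7 (14.9%) downregulated, beside 13.8% and 12.2% of the 8927 tested genes without it. A match is a description of the letters and not of binding, which was not measured.

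**Figure D4:**
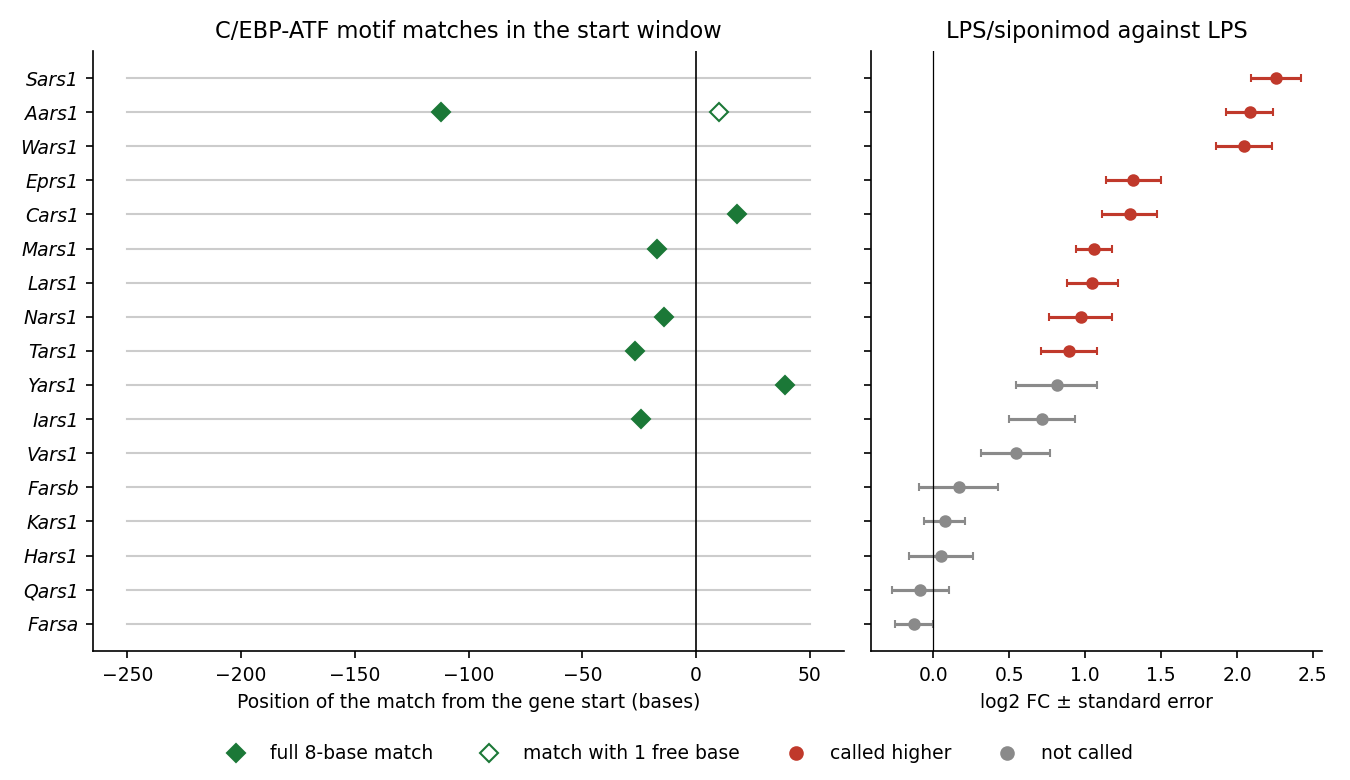
Left, position of matches to TGATGCAA (filled) or TGATGNAA (open) in the start windows of the 17 cytosolic synthetases with a RefSeq window, in bases from the gene start (-1 is the last base upstream and 1 the first base of the gene), with genes ordered by log2 FC. Right, log2 FC with standard error (3 libraries per condition). Matches are found in 7 genes with a log2 FC from 0.72 to 2.08, while Sars1, with 2.26, has none.

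Other genes of tRNA charging and use were described in 10 lists with 137 genes tested, of which 18 were upregulated and 6 downregulated. Beside the 13.6% of all genes that were upregulated, 8 of 16 genes of uncharged tRNA sensing and the ATF4 branch were upregulated, with a median log2 FC of 0.63. The sensor kinase Eif2ak4 (log2 FC 0.14, SE 0.25, adjusted p = 0.70 in edgeR), its partner Gcn1 (0.14, SE 0.24, adjusted p = 0.70 in edgeR) and the kinase's substrate Eif2s1 (0.11, SE 0.21, adjusted p = 0.71 in edgeR) passed in neither direction. Atf4 itself had 5810, 4776 and 5944 counts under LPS against 40037, 30255 and 35271 under LPS/siponimod (log2 FC 2.44, SE 0.19, adjusted p = 0.00321 in edgeR). The related factor Atf5 (log2 FC 2.83), the pseudokinase Trib3 (4.76) and Ddit3 (3.11) were the others with the smallest p. None of the 16 was lower at an unadjusted p of 0.05, in edgeR, or by DESeq2 or limma-voom.

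Of the scaffold proteins of the multi-synthetase complex, Aimp2 had 530, 666 and 773 counts under LPS against 1986, 1449 and 1625 under LPS/siponimod and was upregulated (log2 FC 1.13, SE 0.19, adjusted p = 0.0112 in edgeR). Aimp1 had 906, 1150 and 1234 counts against 2020, 1770 and 1745, and its log2 FC of 0.52 lay under 1.5-fold (adjusted p = 0.0387 in edgeR). Eef1e1 had 1344, 1605 and 1922 counts against 1636, 1399 and 1288, with a log2 FC of -0.40 (adjusted p = 0.0990 in edgeR).

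Among 23 genes of tRNA maturation and export, 2 were upregulated and 3 downregulated (median log2 FC -0.04), beside 13.6% and 11.7% of all genes, so that neither count sets this list apart. Xpot, the exportin that carries mature tRNA out of the nucleus, had 1997, 2833 and 3696 counts under LPS against 13607, 11843 and 12420 under LPS/siponimod (log2 FC 1.92, SE 0.24, adjusted p = 0.00724 in edgeR). Rpp25, a protein of ribonuclease P, had 147, 116 and 79 counts against 826, 856 and 868 (log2 FC 2.67). The splicing endonuclease subunit Tsen54 (log2 FC -0.96), the 3′ processing enzyme Elac2 (-0.67) and the La protein gene Ssb (-0.61) were downregulated.

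Among 41 genes of tRNA modification, 5 were upregulated and 1 was downregulated (median log2 FC 0.00), beside 13.6% and 11.7% of all genes. The deaminase subunit Adat3 (log2 FC 1.03), the wobble uridine methylase Alkbh8 (0.88), the isopentenyl transferase Trit1 (0.88) and the guanosine methylase Mettl1 (1.18) were upregulated, and Elp6, a subunit of Elongator, was downregulated (-0.77), with 7 and 2 genes passing under the replicate block, beside 17.7% and 16.4% of all genes. RNA polymerase III, which transcribes tRNA genes, and its factors had 0 upregulated and 2 downregulated genes of 22, among them Gtf3c3 (log2 FC -0.65), with 2 genes higher at an unadjusted p of 0.05 in edgeR and 0 called higher by DESeq2 or limma-voom.

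Elongation factors and their relatives bring charged tRNA into use. Of 6 cytosolic elongation factor genes 1 was upregulated, beside 13.6% of all genes, and 2 by DESeq2 or limma-voom. It was Eef1a1, which brings charged tRNA to the ribosome, with 110816, 127919 and 136651 counts against 316727, 268149 and 294822 (log2 FC 1.00, SE 0.21, adjusted p = 0.0189 in edgeR). Eef1a1 has many processed copies, and how reads matching several places were counted is not given in the sources used here. Of 11 mitochondrial elongation, initiation and release factors 0 were DEGs, as were 0 of 4 genes of the mitochondrial amidotransferase and formyltransferase, and DESeq2 and limma-voom called 0 of either. At an unadjusted p of 0.05 in edgeR, 1 of the 11 was higher and 2 were lower, and 1 of the 4 was lower. Across the 10 lists, leaving out LPS replicate 2 gave 8 upregulated and 0 downregulated genes, beside 469 and 182 of all 12613 genes then tested. Without LPS replicate 1, 3 list genes were downregulated, beside 644 of 12562 genes. Leaving out LPS/siponimod replicate 1 gave 9 upregulated and 0 downregulated list genes, beside 592 and 191 of 12583. Without LPS/siponimod replicate 3 there were 11 and 0, beside 762 and 273 of 12178. Leaving out LPS replicate 3 gave 29 and 12, beside 1941 and 1772 of 12242. With all libraries kept, the lists had 18 and 6, beside 1633 and 1403 of 11977. Leaving out both libraries numbered 3 gave 16 and 3, and no background share is given here for that setting.

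**Figure D5:**
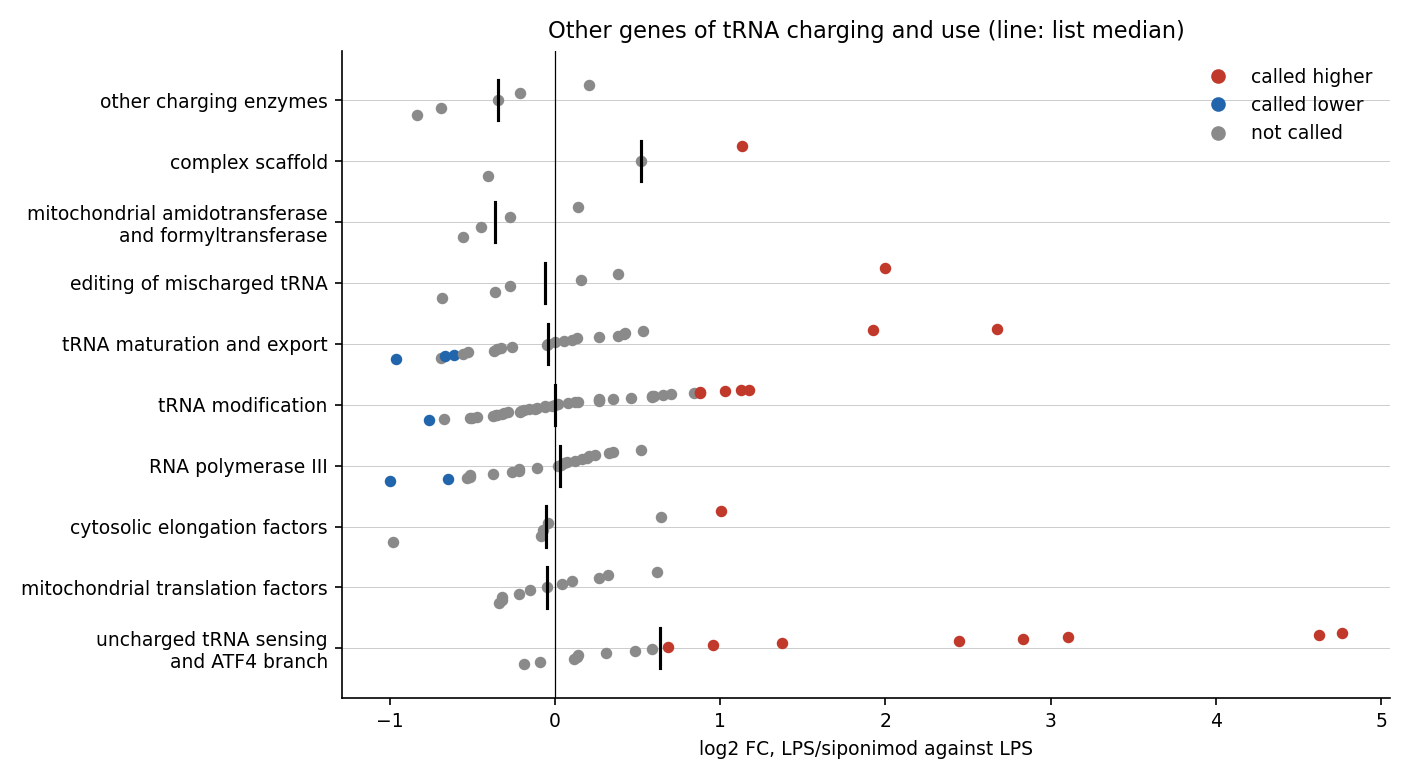
log2 FC of LPS/siponimod against LPS for the 137 tested genes of 10 lists around tRNA charging and use, 1 point per gene coloured by call, with a black line at the median of each list. The list of uncharged tRNA sensing and the ATF4 branch has its median at 0.63 and 8 upregulated genes, while the lists for tRNA maturation, modification and RNA polymerase III lie around 0.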

How the data were processed

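PolyA-selected mRNA was sequenced as single-end reads. The authors demultiplexed reads with bcl2fastq (version 2.20.0.422), trimmed and mapped them to the rat genome (mRatBN7.2) in CLC Genomics Workbench, and deposited raw counts per gene, 1 table for each of the 6 libraries (3 biological replicates per condition). Use of strand and handling of reads matching several places are not given in the sources used here. A row without a name held 0 counts and was left out.

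The analysis used edgeR (version 4.0.16) under R (version 4.3.3): filterByExpr (minimum count of 10, minimum total of 15), TMM factors, glmQLFit and glmQLFTest with condition as the only term, and Benjamini-Hochberg adjustment over all 11977 genes. DEGs had an adjusted p of at most 0.05 and at least 1.5-fold change. A standard error is the log2 FC divided by the square root of the F statistic. Ratios and differences between libraries used log2 CPM with a prior count of 2. The procedure was also run on simulated counts, whose outcome is not given here. That simulation had fewer changed genes than were called here and no pairing of libraries, so it cannot speak for those features. Reads carried no molecular identifiers, so that counts are not numbers of independent molecules. A single count was worth between 0.0215 and 0.0270 CPM.

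Same-numbered libraries deviated together from their group means (correlation over genes 0.420, 0.545 and 0.611, and -0.534 to 0.086 for different numbers), so the numbers were taken to pair the libraries, a choice that rests on these correlations, and a fit with the number as a block was an alternative. Further alternatives were RLE factors, DESeq2 (version 1.42.0), limma-voom (version 3.58.1), the likelihood ratio test, no filter beyond 1 count, a mean of at least 1 CPM, a prior count of 0.5 for ratios, and each library left out. Leaving out both libraries numbered 3 was added after the data were seen.

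Members and lists were chosen with earlier results of these data known. Counts per library were given for the 8 cytosolic and 4 mitochondrial members with the smallest p, members called lower, Wars1, Gars1, Kars1 and the member of each compartment with the largest p; of other lists, up to 4 DEGs per direction with the smallest p, with scaffold genes and Atf4 in any case; of marker lists, the most abundant gene and DEGs. P2ry12, Cd68, Eif2ak4, Gcn1, Eif2s1, Olig1, Pdgfra, Map2, Gjb6, Mog and Mag, and counts of some further DEGs, were chosen after their values were seen. Promoter windows and overlaps between genes came from RefSeq on GRCr8, matched by symbol; no window was used for Gars1 and Rars1. Some genes and lists that this rule covers are not reported here.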

Additional observations from a re-analysis of the deposited data

How the results depend on the processing

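Calls and log2 FC of the synthetases, and counts of DEGs over all genes and in the other lists, were recomputed with 13 alternatives. Of these, 7 were other settings and 6 left out a library. The ratio differences were recomputed only with the smaller prior count and with each library left out. Of the 14 synthetases that were DEGs, 6 (Aars1, Cars1, Eprs1, Mars1, Sars1 and Wars1) kept their call in all 13. Of the 20 others, 4 passed in some alternative: Iars1 and Yars1 with DESeq2, the likelihood ratio test, the replicate block and without LPS replicate 3, Vars1 without LPS replicate 3, and Wars2 with the replicate block. With the replicate block, which uses the pairing by number, 12 cytosolic genes were upregulated and 0 downregulated, and 2 mitochondrial genes were upregulated and 3 downregulated. It changed no other call of a synthetase.

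Leaving out a library in turn gave 6 to 13 upregulated cytosolic genes, 0 to 1 upregulated and 0 to 3 downregulated mitochondrial genes, 469 to 1941 upregulated and 182 to 1772 downregulated genes over all genes tested, and 8 to 29 upregulated and 0 to 12 downregulated genes in the other lists of tRNA charging and use. The arm left with 2 libraries then lends the fit fewer samples. The median log2 FC ranged from 0.76 to 1.08 for cytosolic and from -0.09 to 0.04 for mitochondrial genes. Of the 16 ratio differences, that of Farsb/Fars2 changed sign when a library was left out (-0.20 to 0.41). That of Hars1/Hars2 ranged from 0.22 to 0.65, that of Mars1/Mars2 from -0.49 to -0.13 and that of Farsa/Fars2 from -0.40 to -0.15. Without a filter 1113 genes were downregulated.

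The 8 synthetases that changed sign when a library was left out were all genes that did not pass. Their log2 FC ranged from -0.11 to 0.29 for Hars1, from -0.17 to 0.12 for Qars1, from -0.022 to 0.48 for Farsb, from -0.14 to 0.057 for Cars2, from -0.027 to 0.12 for Nars2, from -0.15 to 0.035 for Pars2, from -0.18 to 0.040 for Sars2 and from -0.032 to 0.53 for Yars2. Without both libraries numbered 3, which was tried after the marker counts were seen, 1 mitochondrial gene and 3 genes of the other lists were downregulated. No background share is given here beside these counts. In that setting Pars2 had a log2 FC of 0.11. Some genes that did not pass kept their sign when a library was left out, but their log2 FC moved. It ranged from -0.48 to -0.090 for Ears2, from 0.073 to 0.29 for Rars1 and from 0.034 to 0.17 for Kars1. For Farsa it ranged from -0.20 to -0.063, for Aars2 from 0.0049 to 0.13 and for Wars2 from 0.50 to 1.00. The cause of these changes was not tested.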
